A study of Mus musculus with 2 samples.

Results

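The Id genes (Id1, Id2, Id3 and Id4) and the inhibitory Smads (Smad6 and Smad7) were followed through a list of Smad4 binding regions from mouse forelimb. Members were the called peaks whose midpoint fell in a window of 600 to 900 kb around each of the 6 genes, and 103 of the 90984 peaks in the list qualified. By window the numbers were 15 for Id1, 20 for Id2, 17 for Id3, 21 for Id4, 15 for Smad6 and 15 for Smad7. Each window was compared with the remainder of its own chromosome, and the chromosomes concerned held 27265 peaks outside the windows. The data came from chromatin immunoprecipitation and sequencing (ChIP-seq) of C57BL/6 forelimbs with an antibody against Smad4, beside 1 library of input DNA from the same tissue, ages and strain, which was not precipitated. The labels give embryonic days 12.5 and 13.5 together for each library and name no genetic change or added agent. Each group had 1 library, so no difference below has a replicate check and no p-value was computed. Depth is unknown, and the intervals given cover counting error over called peaks only. A peak list holds no expression values, so the tissue could not be checked against marker genes.

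Id proteins are helix-loop-helix proteins that lack a DNA-binding region. They pair with E proteins and other helix-loop-helix factors, such as those that drive differentiation, and hold them off DNA. Id1, Id2 and Id3 are textbook immediate targets of BMP signalling, in which receptor-activated Smads join Smad4 and enter the nucleus. Smad6 and Smad7 close a feedback loop: they are induced by the pathway and block it, Smad6 acting mainly on BMP signals and Smad7 on BMP and TGF-β signals. In the limb, BMP signals act in digit formation and in the growth and maturation of cartilage.

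Smads bind DNA at the Smad box, GTCT, whose palindromic form is GTCTAGAC, and at GC-rich sites such as GGCGCC. These motifs were looked for on both strands in RefSeq promoter sequences of GRCm38.p6, which run from 250 bases before to 50 bases after a gene's start, and 4 of the 6 genes (Id2, Id3, Id4 and Smad6) were found in that table. Each of the longer matches is printed because it is the kind of site Smad4 complexes bind, with 30 bases printed 5′ to 3′ on the strand of the gene and the motif in capitals.
Smad6, palindrome, chr9:64022045-64022074, minus strand: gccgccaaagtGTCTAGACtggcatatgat
Id2, GC-rich site, chr12:25096306-25096335, minus strand: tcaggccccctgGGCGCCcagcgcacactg
Id4, GC-rich site, chr13:48260956-48260985, plus strand: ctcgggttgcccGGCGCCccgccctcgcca
The Smad6 palindrome begins 4 bases before the annotated start, and 70 of 32851 promoters (0.213%) in the table contain it. GGCGCC is far more common, in 11.9% of promoters. The short box GTCT is in 88% of promoters. It matched 3 times in Id3, once in Id2 and not in Id4, and its 2 matches in Smad6 are those inside the palindrome. These coordinates belong to another build than the peaks, which are in mm9, so they say nothing about whether a peak covers a motif.

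The windows held fewer peaks for their length than the remainder of their chromosomes. Together they had 24.0 peaks per Mb (exact Poisson 95% interval 19.6 to 29.1), against 35.5 per Mb expected from the remainder of their chromosomes, a ratio of 0.674 (0.550 to 0.818). All 6 windows lay below their chromosome, and the interval of the single window ended below the chromosome's value for Id2 and Smad7, in neither case under every alternative. Among peaks with an FDR of at most 1%, a value of the authors' caller, the ratio was nearer to 1. It was then 0.809 (0.654 to 0.989) for the windows together and 1.01 for Id3. The name of the deposited list mentions start sites of genes and 10 kb around them. Whether peaks were selected by this is not known. If they were, the number of peaks per Mb would follow the number of genes. Every density and ratio given here would then have to be read in that light. Of stretches as long as the window laid along its chromosome, 235 of 252 held at least 10 peaks on chromosome 4 and 129 of 129 on chromosome 12. The shares on the other chromosomes lay between these. A selection by start sites was not tested. The peaks that were present had a higher deposited fold, which is the authors' enrichment value for each peak. Its median was 1.75 in the 103 members (95% interval from order statistics 1.57 to 1.86) and 1.48 on the remainder of the 6 chromosomes. At least 2-fold enrichment was given to 33 members (32.0%, exact binomial 95% interval 23.2 to 42.0%), beside a background of 14.3% in the whole list and 13.9% outside the windows on the same chromosomes.

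**Figure D1:**
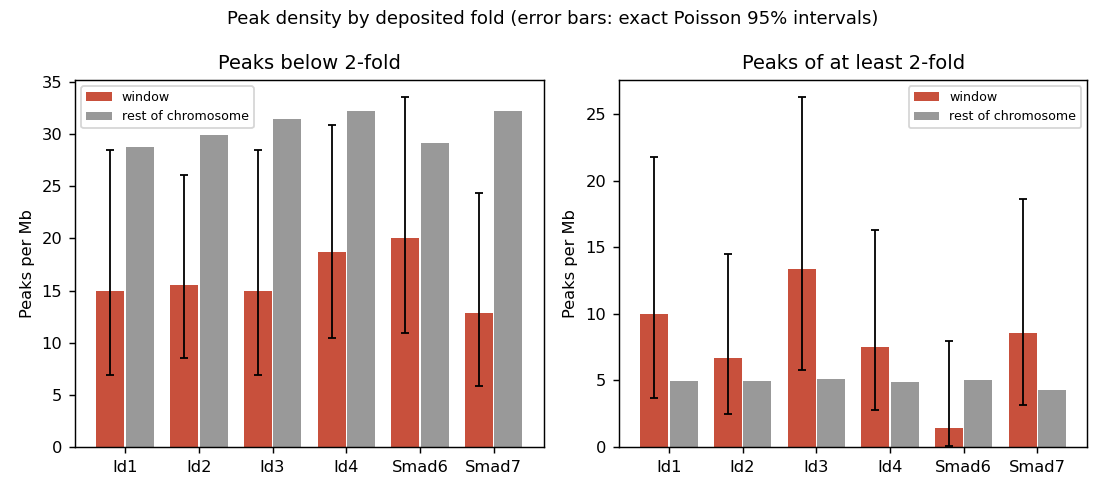
Peaks per Mb (vertical axes, starting at 0) in each window (red) and on the remainder of its chromosome (grey), for peaks below 2-fold (left) and of at least 2-fold (right). Error bars are exact Poisson 95% intervals of the window's count. All 6 red bars are below the grey bar on the left, and 5 of 6 are above it on the right.

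Split by fold, the low density was a property of the weaker peaks. Weaker and stronger refer here to the deposited fold and not to the number of tags. Peaks below 2-fold had a density of 16.3 per Mb in the windows (exact Poisson 95% interval 12.7 to 20.6) and 30.7 per Mb expected, a ratio of 0.531 (0.414 to 0.671). They were less dense in 6 of 6 windows, and in 5 of these, all but Smad6, the interval ended below the chromosome's value. Peaks of at least 2-fold went the other way, at 7.67 per Mb (5.28 to 10.8) against 4.86 per Mb, a ratio of 1.58 (1.09 to 2.22). They were denser in 5 of 6 windows, with Smad6 as the exception, but only the interval of Id3 stayed above its chromosome. For single windows the numbers are small, 1 to 8 peaks, and most of these differences lie within counting error.

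The higher fold did not come with more tags or longer peaks. The median member held 16 tags, the same as on the remainder of the chromosomes, and was 580 bp long against 585 bp. The range was narrow: members held 15 to 30 tags, and 15 is the lowest number in the list. None exceeded 30 tags, which 5.83% of the other peaks did, and none was longer than 1000 bp, as 4.43% of the others were. Within classes of similar numbers of tags the members still had the higher share of at least 2-fold. At 15 tags it was 22.7% of 44 members (exact binomial 95% interval 11.5 to 37.8%) and 7.18% of the others. At 16 to 20 tags it was 34.0% of 47 members (20.9 to 49.3%) and 14.0%, and at 21 to 30 tags 58.3% of 12 members (27.7 to 84.8%) and 28.9%. The share rose with the number of tags in both sets, and the members had the higher share in each class, although in the last class their interval reached below the value of the others.

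By fold the highest member ranked 79th of 90984 and 3 members (2.91%) were among the 1000 highest, which make up 1.1% of the list. At least 3-fold enrichment was given to 2 members (1.94%), in the Id1 and Smad7 windows, beside 0.835% of the whole list and 0.862% of the peaks outside the windows on these chromosomes. By p score (the authors' p-value as its negative log10, multiplied by 10) the best placed ranked 1550th. No member was thus among the 1000 highest, a number near what the same 1.1% gives for 103 peaks, and the median p score of the members was 131 against 107 on the remainder of the chromosomes. No member had a fold below 1, as 4.6% of the other peaks on these chromosomes did. An FDR of at most 1%, again a value of the authors' caller, was given to 95 members (92.2%, exact binomial 95% interval 85.3 to 96.6%), beside 77.6% in the whole list and 77% outside the windows. Of the 8 members above 1%, 6 lay in the Smad6 window. In that window 9 of 15 peaks (60%, 32.3 to 83.7%) had an FDR of at most 1%, an interval that includes the 77%.

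**Figure D2:**
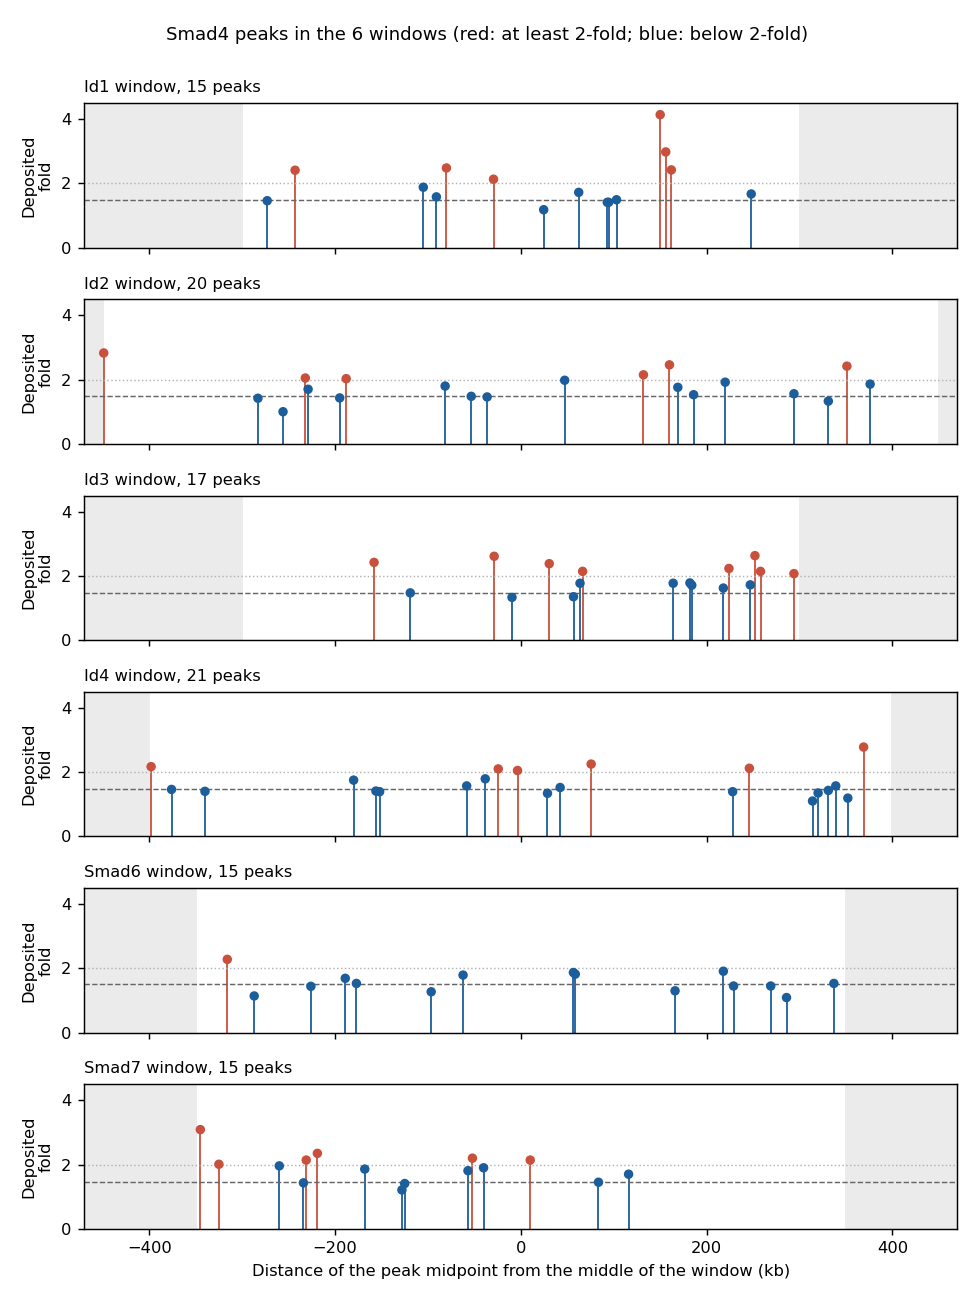
Every member drawn at the distance of its midpoint from the middle of the window (horizontal axis, kb) and at its deposited fold (vertical axis, starting at 0), with 1 panel per window. Red marks at least 2-fold and blue less, the dashed line is the median of the remainder of the chromosome, the dotted line is 2-fold, and grey lies outside the window. The highest peak of the Id1 window, at 4.14, has neighbours of 2.98 and 2.42, while the Smad6 window has 1 red peak.

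Id1, on chromosome 2, is the member most used as a readout of BMP signalling. Its window (chr2:152300001-152900000, mm9) had 25 peaks per Mb (exact Poisson 95% interval 14.0 to 41.2) against 33.7 on the remainder of the chromosome, and 6 of its 15 peaks (40.0%, exact binomial 95% interval 16.3 to 67.7%) were at least 2-fold, beside 14.7% on the remainder. The share exceeded that of the remainder by 25.4 percentage points, but by 9.03 in a window widened to 1200 kb (95% interval -3.21 to 25.6), by 7.52 in its central 300 kb (-11.9 to 45.3) and by 21.1 with FDR at most 1% (-2.60 to 48.8), and none of these was separated from the remainder. With a fold limit of 1.5 the difference in share was 17.2 (-11.1 to 38.7), and with a limit of 3 it was 5.77 (-0.731 to 31.05), again not separated. The strongest feature was a row of 3 neighbouring peaks with gaps under 10 kb. The peak at chr2:152749927-152750604 held 18 tags (exact Poisson 95% interval 10.7 to 28.4) with a fold of 4.14, the highest of all members and the 5th highest on chromosome 2. It was followed at chr2:152756229-152756692 by 15 tags and a fold of 2.98, and at chr2:152761751-152762314 by 16 tags and a fold of 2.42. The peak with the most tags in this window, 29 (19.4 to 41.6), was elsewhere, at chr2:152356856-152357534, with a fold of 2.41 and the window's highest p score of 296. The others of at least 2-fold were at chr2:152519636-152520096, with 15 tags and 2.48, and at chr2:152570240-152570911, with 19 tags and 2.13. The latter lay 29.4 kb before the middle of the window. The peak nearest to the middle, 24.6 kb after it at chr2:152624309-152624879, was the weakest of the window, with 15 tags and a fold of 1.18. Which of these belongs to Id1 cannot be read from the list: in RefSeq gene order Mcts2 and Cox4i2 are its nearest protein-coding neighbours, and peaks were not assigned to any gene.

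Id2, on chromosome 12, is known for its part in the cell cycle and in innate lymphoid cells, and had the widest window (chr12:25300001-26200000). Its 20 peaks made 22.2 per Mb (exact Poisson 95% interval 13.6 to 34.3) against 34.9, a ratio of 0.637 (0.389 to 0.984). The interval of the ratio reached past 1 with FDR at most 1% (0.786, 0.473 to 1.23), in a window widened to 1800 kb (0.942, 0.717 to 1.22), in its central 450 kb (0.702, 0.351 to 1.26), with merged peaks (up to 1.06) and with a fold of at least 1 (up to 1.03). Of these, 6 (30%, exact binomial 95% interval 11.9 to 54.3%) were at least 2-fold, beside 14.3% on the remainder of the chromosome, so this share was not separated from the background, although in the widened window it was, by 12.98 percentage points (2.22 to 26.1). The highest, at chr12:25300686-25301340, had a fold of 2.83, 20 tags (12.2 to 30.9) and the highest p score of the window, 267, but its midpoint was 1.01 kb inside the edge, and the next peak outside that edge had a fold of 1.49. In the interior the highest were at chr12:25909766-25910465, with 20 tags and a fold of 2.46, and at chr12:26100402-26101017, with 17 tags and 2.42. The other 3 of at least 2-fold ranged from 2.03 to 2.15. Among them was the peak with the most tags, 24 (15.4 to 35.7), at chr12:25517692-25518395, with a fold of 2.05. The peak nearest to the middle, 36.3 kb before it at chr12:25713451-25713960, held 17 tags and had a fold of 1.46, below the chromosome's median of 1.49. A peak of 1.98-fold at chr12:25796936-25797448 fell just short of the limit. Kidins220 and Rnf144a are the nearest protein-coding neighbours of Id2 in RefSeq order.

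Id3, on chromosome 4, acts together with Id1 in the development of vessels and brain, and had the largest share of stronger peaks. In its window (chr4:135400001-136000000) 8 of 17 peaks (47.1%, exact binomial 95% interval 23.0 to 72.2%) were at least 2-fold, beside 13.9% on the remainder of the chromosome. The median fold was 1.78 (95% interval from order statistics 1.71 to 2.23) against 1.46, and Id3 was the only window whose interval for the median lay wholly above its chromosome. In the central 300 kb, with 7 peaks, neither the median nor the share was separated from the chromosome. No single peak stood out in fold, although the 17 peaks ran from 1.33 to 2.63. The leading peak, at chr4:135951305-135951795 with 17 tags and a fold of 2.63, was almost equalled by the peak at chr4:135671030-135671519 with 16 tags and 2.61, which lay 28.7 kb before the middle. The other 6 of at least 2-fold ran from 2.07 to 2.42. Tags and fold did not go together here: the peak with the most tags of all members, 30 at chr4:135883649-135884494, had a fold of 1.71, and the highest p score, 253, belonged to a peak of 23 tags and 2.07-fold at chr4:135993197-135993852. The peak nearest to the middle, 9.51 kb before it at chr4:135690199-135690787, held 15 tags with a fold of 1.33, the lowest of the window. The midpoint of the first peak lay 142 kb inside the start of the window, with no peak before it in the window. Rpl11 and E2f2 are the nearest protein-coding neighbours of Id3 in RefSeq order.

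Id4, on chromosome 13, is the family member known from neural and osteoblast differentiation. In its window (chr13:48000001-48800000) the median fold was 1.52 (95% interval from order statistics 1.39 to 2.05) and scarcely differed from the 1.46 of the chromosome. The 21 peaks made 26.3 per Mb (exact Poisson 95% interval 16.2 to 40.1) against 37.1. At least 2-fold were 6 peaks (28.6%, exact binomial 95% interval 11.3 to 52.2%), beside 13.1%, again an interval that holds the background, which it did not in a window widened to 1600 kb (17.6 percentage points above, 5.24 to 32.4). Peaks of at least 2-fold lay close to the middle here: the nearest, 3.56 kb before it at chr13:48396248-48396630, had 15 tags and a fold of 2.05, and the peak 24.3 kb before it at chr13:48375413-48376008 had 15 tags and 2.10. The highest fold, 2.78 with 15 tags (8.40 to 24.7), was at chr13:48768348-48768804, near the far end. A total of 23 tags was reached by neighbouring peaks near the other end, at chr13:48002127-48002701 with a fold of 2.17 and the window's highest p score of 259, and at chr13:48023481-48024291 with a fold of 1.46. The remaining peaks of at least 2-fold were at chr13:48475427-48475992 (2.25) and at chr13:48645758-48646216 (2.12), each with 15 tags. A group of 5 peaks between 48713573 and 48752319 had folds of only 1.10 to 1.57. Rnf144b and Zfp169 are the nearest protein-coding neighbours of Id4 in RefSeq order.

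Smad6, on chromosome 9, was the window with the smallest share of stronger peaks. The window (chr9:63500001-64200000) held 21.4 peaks per Mb (exact Poisson 95% interval 12.0 to 35.3) against 34.2, a ratio of 0.627 (0.351 to 1.03). The interval of the ratio ended below 1 with FDR at most 1% (0.476, 0.217 to 0.903), in the central 350 kb (0.418, 0.136 to 0.976) and in a window widened to 1400 kb (0.605, 0.405 to 0.868). In the window itself 1 of the 15 peaks was at least 2-fold (6.67%, exact binomial 95% interval 0.169 to 31.9%), beside 14.7% on the remainder of chromosome 9. The interval includes the background, so a deficit was not shown, and with a limit of 1.5-fold the share was 2.42 percentage points above the remainder. That peak, at chr9:63533306-63533904, held 18 tags (10.7 to 28.4) with a fold of 2.28 and lay 316 kb before the middle. The peaks next in fold reached 1.91 at chr9:64067311-64068009, 1.87 at chr9:63906265-63906850 and 1.82 at chr9:63908353-63908930. Of these, the peak at 63906265 had the window's highest p score, 193, and with a distance of 56.6 kb it was also nearest to the middle. The gap across the middle was 118 kb, between 63788015 and 63906265, against a median of 17.8 kb between neighbouring peaks on the chromosome. The peak with the most tags, 26 (17.0 to 38.1), at chr9:63623711-63624639, had a fold of 1.44 and an FDR of 1.10%. Smad3, a receptor-activated Smad of the TGF-β branch, is the neighbour of Smad6 on one side in RefSeq order, with Lctl on the other, and peaks were not assigned to either.

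Smad7, on chromosome 18, had the highest median fold of the 6 windows. The window (chr18:75200001-75900000) held 21.4 peaks per Mb (exact Poisson 95% interval 12.0 to 35.3) against 36.5, a ratio of 0.587 (0.329 to 0.968). The interval of the ratio crossed 1 with FDR at most 1% (0.780, 0.436 to 1.29), in the central 350 kb (0.706, 0.323 to 1.34), with merged peaks (up to 1.04), with a fold of at least 1 (up to 1.01) and against all autosomes (up to 1.006). The median fold was 1.90 (95% interval from order statistics 1.45 to 2.14) against 1.46, and 6 of 15 peaks (40.0%, exact binomial 95% interval 16.3 to 67.7%) were at least 2-fold, beside 11.8%. This difference of 28.2 percentage points was 8.87 in a window widened to 1400 kb (95% interval -3.83 to 27.9) and 10.4 in its central 350 kb (-9.06 to 48.1). With a fold limit of 1.5 it was 27.2 (-1.23 to 46.1), and with a limit of 3 it was 6.26 (-0.240 to 31.5). In none of these settings was it separated. The highest, at chr18:75204706-75205436, had a fold of 3.09, 28 tags (18.6 to 40.5) and a p score of 301, the highest p score of all members, and its midpoint lay 5.07 kb inside the edge of the window. The same number of tags was found at chr18:75318156-75318859, with a fold of 2.14. In the middle, the nearest peak, 10.1 kb after it at chr18:75559909-75560388, had 17 tags and a fold of 2.14, and the peak 52.1 kb before it at chr18:75497556-75498315 had 25 tags and 2.20. The other peaks of at least 2-fold were at chr18:75330942-75331546 (2.35) and at chr18:75224342-75224905 (2.01), the lowest value that still met the limit. Peaks were absent from the last part of the window: after 75666000 the next called peak of the chromosome began 279 kb further on, outside the window. Dym and Ctif are the nearest protein-coding neighbours of Smad7 in RefSeq order.

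**Figure D3:**
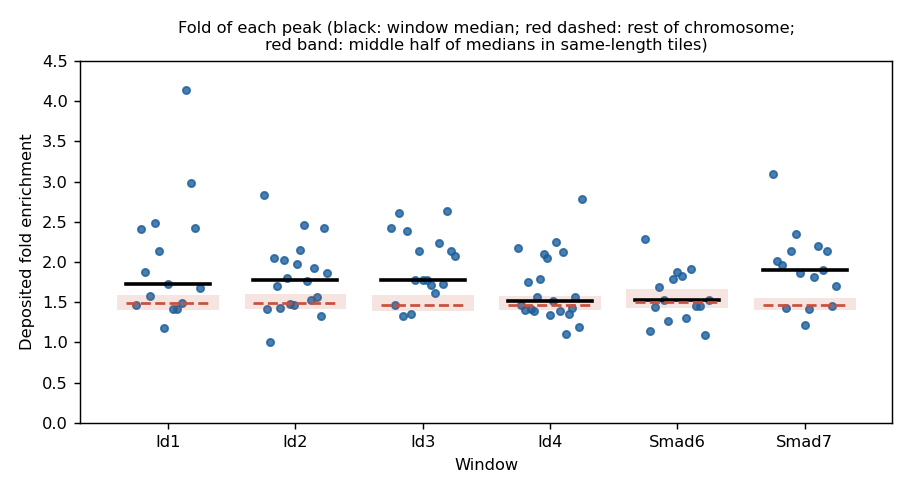
Deposited fold (vertical axis, starting at 0) of each peak (blue points, spread sideways in order of position) by window. Black lines are window medians, red dashed lines the median of the remainder of the chromosome, and red bands the quartile range of the medians of same-length tiles. The medians of Id1, Id2, Id3 and Smad7, 1.72 to 1.90, are above the band, and those of Id4 and Smad6, 1.52 and 1.53, are within it.

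Each window was also set against tiles of the same length laid along its chromosome, 124 to 296 tiles per chromosome, to show how much stretches of this size differ. The number of peaks was below the lower quartile of the tiles in 5 of 6 windows, all but Id3. The Id1 window had 15 peaks where the quartiles of the tiles were 16 and 24. For Id2 there were 20 peaks beside quartiles of 22 and 38, and for Smad7 15 beside 20 and 30. The Poisson intervals of the densities and ratios do not include this spread between stretches, so a window called separated by them can still lie near the lower quartile. Nor do the intervals of shares and medians include it. On chromosome 4 the median fold of single tiles ran from 0.97 to 2.54, beside 1.78 in the Id3 window. The share of at least 2-fold peaks was above the upper quartile in 5 of 6 windows, all but Smad6. For Id3 the share of 47.1% stood beside quartiles of 5.88 and 20%, and for Smad6 the share of 6.67% stood beside quartiles of 7.14 and 20%. Tiles with under 10 peaks were left out of shares and medians. The tiles include gene-poor and gene-rich stretches alike, and the number of genes in the windows was not compared with theirs.

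Inside the windows the stronger peaks were not gathered at the middle. The highest fold of each window was 150 kb or more from the middle in 6 of 6 cases, from 150 kb for Id1 to 449 kb for Id2. Within 150 to 225 kb of the middle, depending on the width of the window, 13 of 51 peaks were at least 2-fold (25.5%, exact binomial 95% interval 14.3 to 39.6%), and in the outer parts 20 of 52 were (38.5%, 25.3 to 53.0%). These intervals overlap widely. Neighbouring peaks were farther apart than usual, which largely restates the lower density of the same peaks. The median gap was 19.8 kb for Id4 to 37.9 kb for Smad6, above the median gap of the chromosome in 6 of 6 windows. Gaps under 10 kb made up 7.14% of those in the Smad6 window and 37.5% in the Id3 window, against 34.0 to 39.8% on the chromosomes. The distances are from the middle of the windows, which is not the start of the gene, since mm9 gene positions were not used here.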

How the data were processed

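The data were 1 Smad4 ChIP library and 1 library of input DNA. BWA (an aligner), MACS and SICER (peak callers) and the build mm9 are named in the submitters' processing notes, with no versions, roles or settings. Per the file headers, the deposited columns are those MACS writes. Its tag counts are whole numbers per peak, its p score is the p-value as −log10, multiplied by 10, its fold enrichment is a ratio whose background is not stated, and its FDR is a percentage, all deposited by the authors. Positions are 1-based as given. The list holds only called peaks and no depth, so intervals cover counting error alone, and neighbouring peaks or tags are not independent.

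The 6 genes, the windows and the comparisons were chosen with earlier results of these data known. Peaks were assigned by midpoint, and densities used the span from the first to the last peak of a chromosome, less the window. The expected density of the windows together weights each chromosome by window length. Intervals are exact Poisson (counts), exact binomial (shares) and order-statistic (medians), at 95%. Peaks named are, per window, those with the highest fold, most tags and highest p score, the one nearest to the middle and those of at least 2-fold, and the other peaks mentioned (window edges, gaps, next in fold, the group in the Id4 window) were chosen after their values were seen. Tiles with at least 10 peaks and classes of tags were also chosen after the values were seen. RefSeq tables of GRCm38.p6 gave names, gene order and promoter letters, and no position of theirs was joined to a peak. The tools were scipy 1.17.1, pandas 2.3.3, numpy 2.4.6 and matplotlib 3.10.9 under Python 3.11.15. The window comparison was run on simulated peaks with independent positions and folds. That run could not check the intervals for neighbouring peaks that are not independent.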

Additional observations from a re-analysis of the deposited data

How the results depend on the processing

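Alternatives were an FDR of at most 1%, a fold of at least 1, assignment by any overlap, windows of 50% or 200% of their width, merged peaks, a comparison set without dense 1 Mb stretches, all autosomes, and fold limits of 1.5 and 3. Leaving out each window in turn was added after seeing the data. Of 200 values, 196 stayed inside the interval of the reported value, but 29 had an interval of their own on another side of no difference: 23 were no longer separated from the remainder and 6 newly were, 28 of them in single windows. Calls for single windows are thus not stable. That 196 values stayed inside says little, because the intervals of single windows are wide. Assignment by any overlap also changed no value, and leaving out dense stretches changed none for Id1, Id2, Smad6 and Smad7. The density ratio of the windows together was 0.658 to 0.809, and a window exceeded 1 only for Id3 with FDR at most 1% (1.01). The 0.809 also came with FDR at most 1% and had an interval of 0.654 to 0.989. At that limit the ratio was 0.962 for Id1 (0.538 to 1.59) and 0.883 for Id4 (0.539 to 1.36). Only Smad6 moved away from 1, to 0.476. The difference in median fold of the windows together was 0.18 to 0.30, and for Id3 it moved from 0.32 to 0.20 with FDR at most 1%. For the median, single windows fell below 0 with FDR at most 1% (Id4, -0.035) and in the wider window (Id1, -0.005). The share of at least 2-fold peaks, 18.2 percentage points above the remainder for the windows together, was 15.2 (without Id3) to 22.6 (without Smad6). In the wider windows it was 13.1, in the 50% windows 11.6, and for Smad6 it moved to -14.7, with 5 peaks left. With a limit of 3-fold, which 2 members reach, the difference for the windows together was 1.08 (-0.626 to 5.98) and no longer separated. In windows where no member reaches it the difference turned negative, at -1.22 for Id3, -0.978 for Id2 and -0.440 for Id4. Of the 33 members of at least 2-fold, 31 lie between 2-fold and 3-fold. No paired analysis was possible because there is only 1 Smad4 and 1 input library. Tags of 15 to 30 per peak limit the precision of every single peak.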
